A study of Mus musculus with 31 samples.

Results

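Transcript levels of 6 genes of the insulin-like growth factor (IGF) and insulin system were described in sorted cells of the newborn mouse pancreas: the ligand gene Igf1, the receptor genes Igf1r, Igf2r and Insr, and the receptor substrate genes Irs1 and Irs2. They were picked out by gene symbol among the 38283 genes listed, and each symbol matched 1 row. All 6 were above 0 in each of the 21 libraries with values. IGF1 and IGF2 are secreted growth factors that act through the receptor tyrosine kinase encoded by Igf1r, and IGF2 can also act through a form of the insulin receptor, encoded by Insr. Both kinases phosphorylate the docking proteins IRS1 and IRS2, which recruit phosphoinositide 3-kinase and so activate AKT. The Igf2r product, which is also the receptor for mannose 6-phosphate, carries IGF2 to lysosomes for breakdown and does not signal as a kinase. In mice Igf2r is imprinted and expressed mainly from the maternal allele, while the long non-coding RNA Airn is transcribed across part of it from the paternal allele.

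RNA was sequenced from pancreata of C57BL/6 mice at postnatal day 2, dissociated and sorted into YFP-positive (mesenchymal) and YFP-negative (non-mesenchymal) cells. The series asks how Igf2 made by the mesenchyme acts on the pancreas, so these genes hold the receptors and substrates through which such a signal would pass. Every group, controls included, carried the Nkx3.2-Cre driver. In the H19DMD model, controls were H19DMD+/+; Nkx3.2+/Cre and mutants H19DMDfl/+; Nkx3.2+/Cre, with 3 control and 4 mutant libraries of each cell fraction. H19DMD is the imprinting control region shared by H19 and Igf2, and the series treats its deletion as a gain of Igf2. In the Igf2 deletion model, controls were Igf2+/+; Nkx3.2Cre/+ and mutants Igf2+/fl; Nkx3.2Cre/+, and their non-mesenchymal cells gave 4 control libraries and 3 mutant ones, while the mesenchymal libraries of that model were not analysed here. Because the driver defines the mesenchyme, the non-mesenchymal cells of a mutant are neighbours of recombined cells and were selected by lack of YFP. The labels do not say whether a library came from 1 animal or from pooled animals, so p-values measure the spread between these libraries, which may be technical in part.

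Levels are FPKM, fragments scaled by transcript length and by the number mapped in the library, so genes of different length can be set side by side within a library. The 2 models were normalised in separate tables, and no test was made across them. Absolute depth is unknown. Between 17476 and 20918 genes were above 0 per library, and 38.2 to 82.5% of a library's FPKM fell on its 3 most abundant features. The defining markers followed the labels of the fractions: 8 mesenchymal markers, among them Col1a1 and Pdgfra, summed to 4523 to 5926 FPKM in mesenchymal libraries and 149 to 412 FPKM in non-mesenchymal libraries. The 4 epithelial markers, among them Epcam, summed to 3.81 to 14.8 and 346 to 902 FPKM. Non-mesenchymal cells are a mixture that held acinar, endocrine, ductal, endothelial and leukocyte markers. Mesenchymal libraries also held acinar markers (529 to 1671 FPKM, beside 27175 to 97920 FPKM in non-mesenchymal ones) and endothelial markers (92.8 to 150 FPKM). In such bulk samples, fewer cells of a type and less RNA per cell cannot be told apart. Igf2, the gene that the models target, had a mean of 3849 ± 189 FPKM (SD, n = 3) in mesenchymal controls and 7040 ± 800 FPKM (SD, n = 4) in H19DMD mutants, with no overlap between the groups (two-sided exact permutation p = 0.0286, the smallest that 4 against 3 libraries allow). In the fit across all genes this difference did not pass (0.87 ± 0.21 on the log2 scale, SE; limma adjusted p = 0.927).

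The promoters of 5 of the 6 genes were in the RefSeq table used here (GRCm38.p6). It had no entry for Insr, which does not mean that Insr lacks an annotated promoter. The 250 bases before the annotated start are shown for Igf2r and Irs1, which were both higher in mesenchymal cells (below). Those of Igf1r are also shown, for which neither fraction comparison passed. The bases are written 5′ to 3′ along the gene's strand, with each CG dinucleotide in capitals. The Igf2r window lies at chr17:12769707-12769956 on the minus strand, the Irs1 window at chr1:82291440-82291689 on the minus strand and the Igf1r window at chr7:67952007-67952256 on the plus strand.
Igf2r: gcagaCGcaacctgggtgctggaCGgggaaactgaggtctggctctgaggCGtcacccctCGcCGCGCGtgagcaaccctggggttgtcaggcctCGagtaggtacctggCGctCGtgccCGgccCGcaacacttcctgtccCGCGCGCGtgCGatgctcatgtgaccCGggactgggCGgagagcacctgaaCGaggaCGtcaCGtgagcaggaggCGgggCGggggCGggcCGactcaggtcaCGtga
Irs1: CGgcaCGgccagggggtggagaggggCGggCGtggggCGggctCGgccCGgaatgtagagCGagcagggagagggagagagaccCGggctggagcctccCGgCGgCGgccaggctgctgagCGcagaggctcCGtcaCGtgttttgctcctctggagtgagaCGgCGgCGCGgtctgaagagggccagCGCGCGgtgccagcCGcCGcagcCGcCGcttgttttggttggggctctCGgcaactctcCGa
Igf1r: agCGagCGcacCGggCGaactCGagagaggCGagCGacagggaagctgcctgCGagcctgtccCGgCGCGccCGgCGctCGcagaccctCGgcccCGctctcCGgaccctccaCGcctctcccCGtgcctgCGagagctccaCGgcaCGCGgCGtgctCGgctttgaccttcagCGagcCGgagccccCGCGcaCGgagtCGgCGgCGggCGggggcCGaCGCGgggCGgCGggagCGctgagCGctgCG
All 3 windows are rich in CG dinucleotides. The Igf2r window has 27, the Irs1 window 28 and the Igf1r window 42, which is more than in 91.4, 92.4 and 99.1% of the 32851 promoter windows of the same length. The Irs2 window (chr8:11008930-11009179, minus strand) has 34. The Igf1 window (chr10:87860861-87861110, plus strand) has 5, close to the median of 6 over all windows. It lies within an annotated exon of 2 other Igf1 transcripts and is not shown. Searched on both strands, the letters GGGCGG occur 3 times before Igf2r, 2 times before Irs1 and before Igf1r, 1 time before Irs2 and not before Igf1, against 32.7% of all windows with at least 1. TATAAA is in none of the 5 windows and in 12.4% of all, and CCAAT is in those of Igf1 and Irs2 and in 33.8% of all. Irs2 and Igf1r, which did not pass between fractions, had more CG dinucleotides than Irs1 and Igf2r, which did.

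Igf1, the ligand gene (chr10:87858265-87937042, GRCm38, plus strand, protein coding), was far higher in mesenchymal than in non-mesenchymal cells. Mesenchymal controls had 348, 288 and 189 FPKM, and mesenchymal H19DMD mutants had 388, 375, 317 and 309 FPKM. Non-mesenchymal H19DMD controls had 35.1, 44.4 and 74.5 FPKM, and the mutants had 31.1, 40.5, 51.4 and 50.9 FPKM. The lowest mesenchymal library was thus above the highest non-mesenchymal one, by a wide margin. Means were 275 ± 80.5 against 51.3 ± 20.6 FPKM in controls (SD, n = 3 and 3), a 5.35-fold difference, and 347 ± 40.0 against 43.5 ± 9.66 FPKM in mutants (SD, n = 4 and 4), a 7.99-fold difference. On the log2(FPKM + 1) scale the differences were 2.42 ± 0.36 (SE; limma adjusted p = 0.00545) and 2.99 ± 0.19 (SE; limma adjusted p = 1.46e-05). In mesenchymal controls the mean of Igf1 was above that of 97.8% of the 15528 genes whose mean reached 1 FPKM, and in non-mesenchymal controls above 90.7%. In the Igf2 table, non-mesenchymal controls had 16.03, 49.4, 50.4 and 37.3 FPKM and mutants 94.1, 37.2 and 46.4 FPKM, so these groups overlapped.

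Non-mesenchymal cells held 18.7% of the mesenchymal Igf1 level in controls and 12.5% in H19DMD mutants. The summed mesenchymal markers were at 3.25% and 3.95%, Igf2 at 1.25% and 1.53%, and Vim, the highest single mesenchymal marker in this measure, at 16.4% and 20.2%. Macrophage markers (6 genes, among them Csf1r and C1qa) summed to 15.1 to 68.0 FPKM in mesenchymal and 52.5 to 204 FPKM in non-mesenchymal libraries of the H19DMD table, with 3 to 5 of the 6 under 1 FPKM in each mesenchymal library. Endothelial markers (5 genes, among them Pecam1) summed to 92.8 to 150 and 18.9 to 57.6 FPKM. The part of these cells in the non-mesenchymal Igf1 level was not tested.

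Igf2r, the receptor that clears IGF2 (chr17:12682406-12769664, minus strand, protein coding; promoter shown above), was also higher in mesenchymal cells. Mesenchymal controls had 199, 178 and 236 FPKM, and the mutants had 131, 356, 181 and 301 FPKM. In non-mesenchymal cells the H19DMD controls had 56.9, 31.3 and 66.3 FPKM and the mutants 38.6, 63.4, 48.4 and 38.6 FPKM. No mesenchymal library fell to the non-mesenchymal range. Means were 204 ± 29.3 and 51.5 ± 18.1 FPKM in controls (SD, n = 3 and 3), a 3.96-fold difference, and 243 ± 104 and 47.2 ± 11.7 FPKM in mutants (SD, n = 4 and 4), a 5.14-fold difference. The log2 differences were 2.02 ± 0.31 (SE; limma adjusted p = 0.00625) and 2.26 ± 0.33 (SE; limma adjusted p = 0.00137). The coefficient of variation among mesenchymal libraries was 14.3% in controls and 42.9% in mutants. Non-mesenchymal libraries of the Igf2 model had 46.5, 44.9, 56.7 and 100.2 FPKM in controls and 43.8, 46.5 and 34.3 FPKM in mutants.

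Airn overlaps Igf2r on the opposite strand (chr17:12741311-12860136, plus strand), from within the gene to beyond its start, and the deposited table gives Igf2r, Airn and 5 other genes 1 shared locus entry. Whether reads were assigned by strand is not given in the sources used here, so reads of the overlap cannot be told apart, and the levels of Igf2r and Airn are uncertain to that extent. Airn had 311, 242 and 331 FPKM in mesenchymal controls and 175, 328, 260 and 480 FPKM in mesenchymal mutants. In non-mesenchymal cells of the H19DMD table it had 50.5, 22.6 and 49.8 FPKM in controls and 45.1, 64.9, 39.4 and 41.6 FPKM in mutants. Airn was higher in mesenchymal cells by 2.89 ± 0.35 on the log2 scale in controls (SE; limma adjusted p = 0.00251) and by 2.61 ± 0.31 in mutants (SE; limma adjusted p = 0.000429). The mesenchymal mutant with the lowest Igf2r, replicate 1, also had the lowest Airn. In the Igf2 table the order was the reverse at the top: control replicate 4 had the highest Igf2r (100.2 FPKM) and the lowest Airn (34.2 FPKM). The ratio of Igf2r to Airn lay between 0.628 and 1.09 in mesenchymal libraries and between 0.585 and 2.93 in non-mesenchymal libraries. The longest annotated transcript of Airn is 1375 nt, far shorter than its locus, and that of Igf2r is 8887 nt. The lengths used for scaling are not given, so a ratio near 1 need not mean equal abundance.

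**Figure D1:**
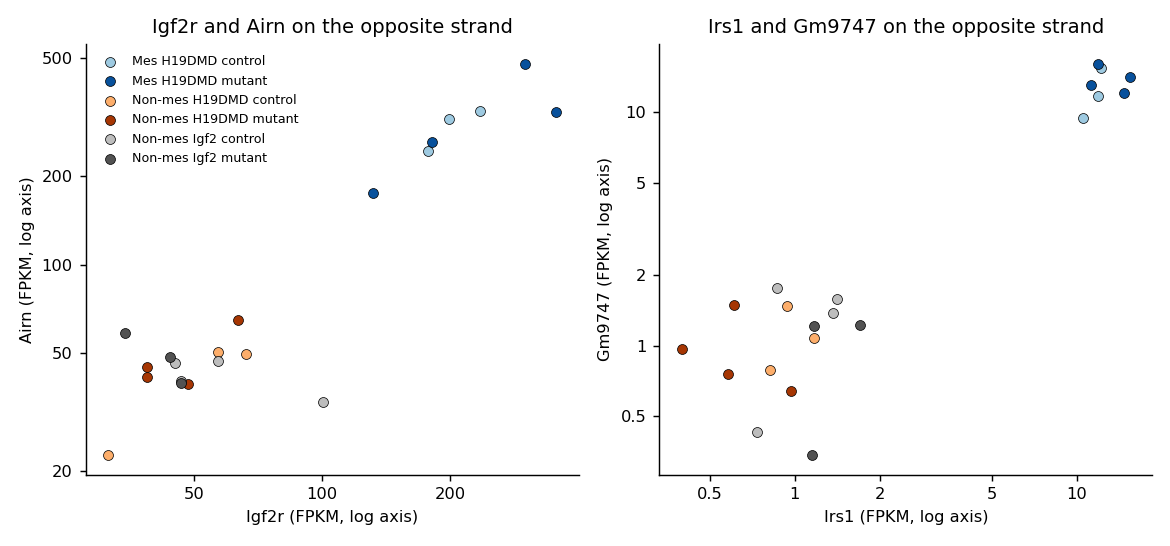
FPKM of Igf2r against Airn (left) and of Irs1 against Gm9747 (right), each pair overlapping on opposite strands, with 1 point per library coloured by group and log axes. The 7 mesenchymal libraries lie apart at the upper right in both panels, from 131 FPKM of Igf2r and 10.5 FPKM of Irs1 upward.

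The 2 kinase receptors differed less between groups. Igf1r (chr7:67952827-68233668, plus strand, protein coding) had 28.4, 23.2 and 30.7 FPKM in mesenchymal controls and 14.1, 15.3 and 23.6 FPKM in non-mesenchymal controls. Of the 3 mesenchymal controls, 2 were above every non-mesenchymal one. The difference was 0.63 on the log2 scale (95% interval 0.03 to 1.23), a 1.55-fold difference of mean FPKM, and did not pass after adjustment (limma adjusted p = 0.131). In H19DMD mutants Igf1r had 25.4, 26.6, 20.3 and 33.2 FPKM in mesenchymal and 21.7, 23.4, 16.2 and 21.6 FPKM in non-mesenchymal cells, a log2 difference of 0.33 (95% interval -0.11 to 0.77; limma adjusted p = 0.246). In the Igf2 table it had 20.3, 24.7, 20.8 and 21.1 FPKM in controls and 28.8, 16.1 and 24.2 FPKM in mutants. All 21 values thus lay between 14.1 and 33.2 FPKM.

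Insr, the insulin receptor gene (chr8:3122061-3279617, minus strand, protein coding), had 16.3, 13.3 and 15.3 FPKM in mesenchymal controls and 14.98, 19.4, 14.1 and 17.8 FPKM in mesenchymal mutants. Non-mesenchymal libraries of the H19DMD table had 11.7, 11.7 and 15.3 FPKM in controls and 15.1, 18.5, 17.5 and 16.8 FPKM in mutants. In the Igf2 table controls had 15.6, 17.6, 15.03 and 19.2 FPKM and mutants 20.1, 18.3 and 21.7 FPKM. The ranges of mesenchymal and non-mesenchymal libraries overlapped throughout. Mesenchymal minus non-mesenchymal, the log2 difference was 0.20 in controls (95% interval -0.25 to 0.66; limma adjusted p = 0.487) and -0.04 in mutants (95% interval -0.39 to 0.31; limma adjusted p = 0.871). Both intervals lie below the differences of Igf1 and Igf2r between the same libraries.

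The receptor substrates parted from each other. Irs1 (chr1:82233101-82291416, minus strand, protein coding; promoter shown above) had 11.96, 12.2 and 10.5 FPKM in mesenchymal controls and 11.3, 14.7, 11.9 and 15.5 FPKM in mesenchymal mutants. Non-mesenchymal H19DMD libraries had 1.17, 0.940 and 0.817 FPKM in controls and 0.607, 0.968, 0.581 and 0.397 FPKM in mutants. Irs1 was thus near 1 FPKM or below in every non-mesenchymal library of this table. Mean levels were 11.6 ± 0.901 against 0.977 ± 0.182 FPKM in controls (SD, n = 3 and 3), an 11.8-fold difference, and 13.4 ± 2.06 against 0.638 ± 0.239 FPKM in mutants (SD, n = 4 and 4), a 20.9-fold difference. The log2 differences were 2.67 ± 0.19 (SE; limma adjusted p = 0.000429) and 3.13 ± 0.19 (SE; limma adjusted p = 1.28e-05), which the added 1 FPKM makes smaller than the ratio of the means. Irs1 reached the filter of 1 FPKM in these comparisons through its mesenchymal libraries alone. Non-mesenchymal Irs1 was 8.46% of the mesenchymal level in controls and 4.78% in mutants. In the Igf2 table it was 0.865, 0.735, 1.37 and 1.41 FPKM in controls and 1.18, 1.15 and 1.70 FPKM in mutants.

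Gm9747 overlaps the last part of Irs1 on the opposite strand (chr1:82233112-82235933, plus strand, protein coding), and the deposited table gives both 1 locus entry. Its mean was 12.3 ± 3.06 FPKM in mesenchymal controls (SD, n = 3) and 1.12 ± 0.346 FPKM in non-mesenchymal controls (SD, n = 3), close to the levels of Irs1, so the share of reads that belongs to each is uncertain. The antisense or overlapping genes at Igf1 (Igf1os), Insr (Gm16180) and Irs2 (9530052E02Rik) did not exceed 3.81, 7.37 and 3.99 FPKM in any library.

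Irs2 (chr8:10984681-11008458, minus strand, protein coding) did not follow Irs1. It had 12.8, 7.03 and 8.84 FPKM in mesenchymal controls and 8.88, 10.7, 8.53 and 11.998 FPKM in mesenchymal mutants. Non-mesenchymal H19DMD libraries had 7.56, 7.15 and 9.09 FPKM in controls and 15.2, 13.5, 4.35 and 12.5 FPKM in mutants. The fractions overlapped in both genotypes, with log2 differences of 0.21 (95% interval -0.41 to 0.83; limma adjusted p = 0.602) and -0.06 (95% interval -0.87 to 0.75; limma adjusted p = 0.923). Among the non-mesenchymal mutants, replicate 3 stood below all the other libraries of that table. In the Igf2 table Irs2 had 20.9, 15.1, 18.8 and 22.7 FPKM in controls and 15.3, 18.8 and 18.9 FPKM in mutants.

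**Figure D2:**
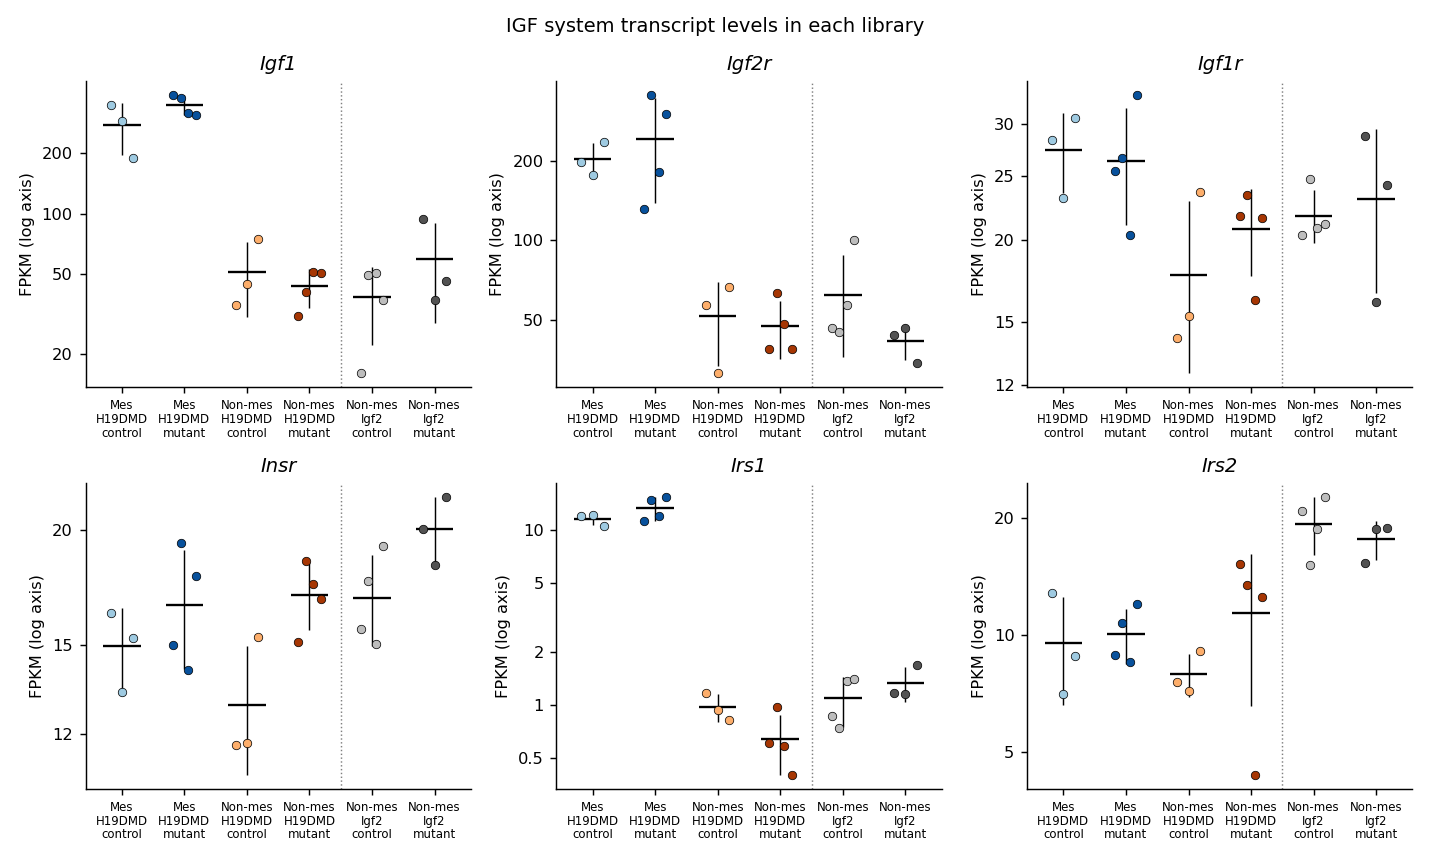
FPKM of the 6 genes in each of the 21 libraries (points, log axes that differ between panels), with the group mean (horizontal bar) and SD (vertical line); Mes is mesenchymal, Non-mes non-mesenchymal, and the dotted line separates the 2 tables. Igf1, Igf2r and Irs1 have no overlap between fractions, and Igf1r, Insr and Irs2 do.

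Set against all genes, 3 of the 6, Igf1, Igf2r and Irs1, passed as higher in mesenchymal cells in controls, where 22.6% of the 16732 genes tested passed and 12.4% passed as higher. The same 3 passed in H19DMD mutants, where 28.6% of 16767 genes passed and 13.5% passed as higher. Irs1 is in this count through its mesenchymal libraries, without which it would not have been tested. None of the 6 passed as lower, as 10.3% of genes did in controls and 15.1% in mutants. The groups did not overlap for these 3 genes in either comparison, which held for 39.9% of genes in controls (22.4% with mesenchymal cells higher) and 31.0% in mutants (14.4% higher), and the exact permutation p took its smallest possible value, 0.1 with 3 against 3 libraries and 0.0286 with 4 against 4. The 2 comparisons share no library. The order of group means in the H19DMD table was, for Igf1, Igf2r and Irs1 alike, mesenchymal mutants, mesenchymal controls, non-mesenchymal controls and non-mesenchymal mutants. In that order only the step from mesenchymal controls to non-mesenchymal controls separated ranges that did not overlap. For Igf1r, Insr and Irs2 every neighbouring pair of groups overlapped.

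**Figure D3:**
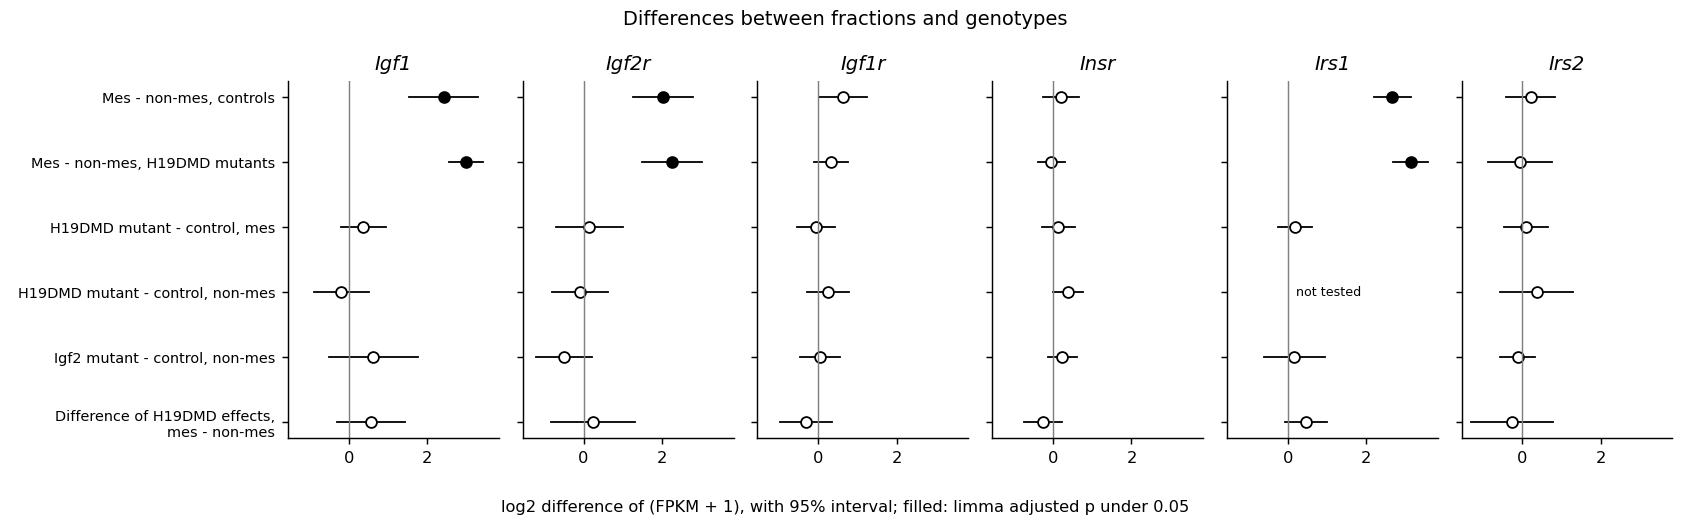
Differences on the log2(FPKM + 1) scale with 95% intervals for the 6 genes in the 6 comparisons; filled points have a limma adjusted p under 0.05 over all genes tested. Filled points are those of Igf1, Igf2r and Irs1 in both fraction comparisons, between 2.02 and 3.13, and each interval of the other 4 comparisons includes 0.

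Within a library, Igf1 and Igf2r held the first 2 places among the 6 genes in 20 of 21 libraries, Igf1 being first in 13 and Igf2r in 8. Irs1 was last in all 14 non-mesenchymal libraries and in 1 of the 7 mesenchymal ones. Ratios within a library do not depend on its scaling. Igf2r exceeded Igf1r in all 21 libraries, by 7.02 to 7.68 times in mesenchymal controls, 5.17 to 13.4 times in mesenchymal mutants, 2.05 to 4.03 times in non-mesenchymal controls and 1.78 to 2.99 times in non-mesenchymal mutants of the H19DMD table. Transcripts of the clearing receptor exceeded those of the signalling receptor by more in mesenchymal libraries, with no overlap between fractions. Airn was also higher there, 7.20-fold in controls and 6.51-fold in mutants. Reads of its overlap with Igf2r cannot be told apart, so the size of this ratio is uncertain. Igf1r exceeded Insr in 19 of 21 libraries, with a ratio of 1.74 to 2.01 in mesenchymal controls, 1.37 to 1.87 in mesenchymal mutants, 1.21 to 1.55 in non-mesenchymal controls and 0.924 to 1.44 in non-mesenchymal mutants.

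The ratio of Irs1 to Irs2 was 0.934 to 1.73 in mesenchymal controls and 1.27 to 1.40 in mesenchymal mutants, and Irs1 was the higher of the pair in 6 of 7 mesenchymal libraries. In non-mesenchymal libraries the ratio was 0.0899 to 0.155 in H19DMD controls, 0.0318 to 0.133 in H19DMD mutants, 0.0414 to 0.0729 in Igf2 controls and 0.0614 to 0.0900 in Igf2 mutants. Mesenchymal cells thus held the substrates at like levels, and non-mesenchymal cells held mainly Irs2. For the ligands, the ratio of Igf2 to Igf1 was 11.1 to 19.3 in mesenchymal controls, 19.9 to 20.9 in mesenchymal mutants, and 0.620 to 4.88 over all non-mesenchymal libraries.

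**Figure D4:**
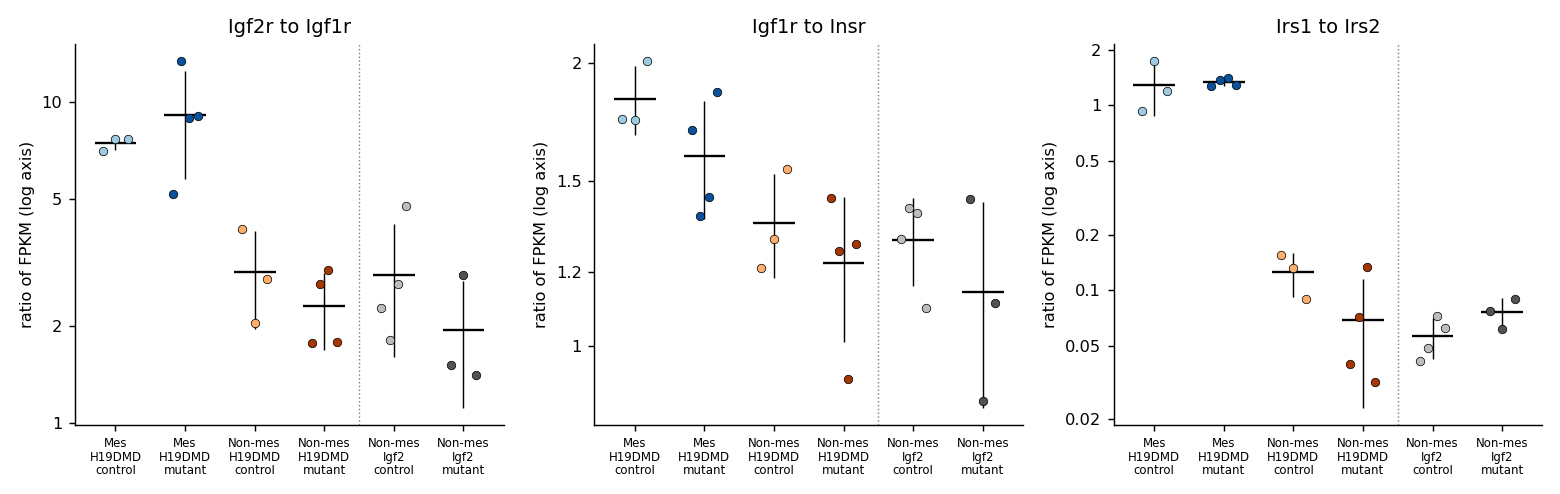
Ratios of FPKM within each library (points, log axes), with the group mean (bar) and SD (line), for Igf2r to Igf1r, Igf1r to Insr and Irs1 to Irs2; the dotted line separates the 2 tables. Mesenchymal libraries lie above all non-mesenchymal ones for Igf2r to Igf1r (from 5.17 upward) and for Irs1 to Irs2 (from 0.934 upward). The fractions overlap for Igf1r to Insr. Reads of the overlap of Igf2r and Airn cannot be told apart, which leaves the ratio of Igf2r to Igf1r uncertain.

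In mesenchymal cells, H19DMD mutants did not differ from controls in any of the 6 genes beyond the threshold. In this comparison 0.0694% of 15856 genes passed (11 genes by limma, and 755 or 4.76% at an unadjusted p under 0.05), and 0 of the 6 passed at either level. Igf1 was 0.37 higher on the log2 scale (95% interval -0.19 to 0.94; limma adjusted p = 0.927; exact permutation p = 0.143), and the control of 348 FPKM lay within the mutants' range. The difference was 0.13 without control replicate 3 and 0.57 without control replicate 1. The interval for Igf1r was -0.55 to 0.43, for Igf2r -0.70 to 1.00, for Insr -0.29 to 0.56, for Irs1 -0.24 to 0.61 and for Irs2 -0.48 to 0.66. The groups overlapped for all 6 genes, where 5.39% of genes had groups that did not. Igf2 itself was 1.83-fold higher in the same libraries; the intervals of Igf1 and Igf2r include its log2 difference of 0.87, and those of the other 4 genes do not. In these libraries smooth muscle and pericyte markers (4 genes) summed to 445 to 744 FPKM in controls and 120 to 666 FPKM in mutants, and ductal markers to 33.9 to 80.4 and 14.1 to 33.0 FPKM, the latter without overlap. Their part in these values was not tested.

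In non-mesenchymal cells of the H19DMD model, 0.0677% of 16239 genes passed (11 genes by limma, and 868 or 5.35% at an unadjusted p under 0.05), and 0 of the 5 member genes tested did so at either level. Insr came nearest, and 3 of 4 mutants were above all 3 controls. Its means were 17.0 ± 1.43 FPKM in mutants and 12.9 ± 2.08 FPKM in controls (SD, n = 4 and 3). The log2 difference was 0.38 (95% interval -0.006 to 0.77, limma adjusted p = 0.894, exact permutation p = 0.0571). Without the filter, the unadjusted limma p of Insr was 0.0498 (95% interval 0.0005 to 0.76, limma adjusted p = 0.882). Beside it, endocrine markers (6 genes, among them Ins1 and Gcg) summed to 18743 to 28385 FPKM in controls and 10128 to 19453 FPKM in mutants, and epithelial markers to 346 to 533 and 465 to 855 FPKM. Both pairs of ranges overlapped. Erythroid markers (5 genes) summed to 115, 401 and 121 FPKM in controls and 136, 622, 1015 and 1561 FPKM in mutants, and leukocyte markers (4 genes) to 267, 338 and 343 FPKM and to 341, 129, 177 and 199 FPKM. In both lists, as for Insr, mutant replicate 1 was the one within the controls' range. The part of these cells in the Insr values was not tested. Irs1 had a mean below 1 FPKM here and was not tested; its mutants were lower in 3 of 4 libraries than every control (exact permutation p = 0.114). The intervals were -0.90 to 0.51 for Igf1, -0.29 to 0.77 for Igf1r, -0.80 to 0.63 for Igf2r and -0.57 to 1.29 for Irs2. The groups overlapped for all 6 genes again, beside 5.68% of genes whose groups did not. Igf2 in these cells was 48.2 ± 4.38 FPKM in controls and 108 ± 50.9 FPKM in mutants (SD, n = 3 and 4), and mutant replicate 3, with the lowest Irs2, had the lowest Igf2 (45.4 FPKM) of the mutants.

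The difference between the 2 H19DMD effects, mesenchymal minus non-mesenchymal, was tested as an interaction over the 14 libraries, where 0.0117% of 17105 genes passed (2 genes by limma, and 1087 or 6.35% at an unadjusted p under 0.05). It passed for 0 of the 6 genes at either level. Irs1 had the smallest unadjusted p, with a log2 difference of 0.46 (95% interval -0.08 to 1.00; limma adjusted p = 0.836); it entered this fit through its mesenchymal libraries, since its non-mesenchymal means were 0.977 and 0.638 FPKM. The median over all genes was -0.11, a shift that the deposited scaling leaves in place. The fraction, genotype and interaction comparisons of this model draw on the same 14 libraries.

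For the Igf2 deletion, tested in non-mesenchymal cells, 0.0631% of 17441 genes passed (11 genes by limma, and 921 or 5.28% at an unadjusted p under 0.05), and again 0 of the 6 genes did so at either level. Igf1 had means of 59.2 ± 30.5 FPKM in mutants and 38.3 ± 15.98 FPKM in controls (SD, n = 3 and 4), and a log2 difference of 0.62 (95% interval -0.50 to 1.75; limma adjusted p = 0.919). Its extremes were mutant replicate 1 at 94.1 FPKM and control replicate 1 at 16.03 FPKM. The difference was 0.24 without that mutant and 0.26 without that control. Igf2r had means of 41.5 ± 6.45 and 62.1 ± 26.0 FPKM (SD, n = 3 and 4), with a log2 difference of -0.50 (95% interval -1.21 to 0.21; limma adjusted p = 0.919), and without control replicate 4 the difference was -0.25. For Insr, 2 of 3 mutants were above all controls (0.24, 95% interval -0.14 to 0.62; exact permutation p = 0.114). The intervals were -0.47 to 0.57 for Igf1r, -0.60 to 0.94 for Irs1 and -0.57 to 0.33 for Irs2. Groups overlapped for all 6 genes, and 6.02% of genes had groups that did not.

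Markers of other cell types moved with these groups. Acinar markers (6 genes, among them Cpa1 and Prss2) summed to 27175 to 39107 FPKM in the Igf2 controls and 79366 to 91516 FPKM in the mutants, with no overlap; most of this sum was Ctrb1, at 25717 to 37042 FPKM in controls and 75462 to 86750 FPKM in mutants. Epithelial markers (4 genes) summed to 715 to 902 FPKM in controls and 528 to 676 FPKM in mutants, and ductal markers (5 genes) to 946 to 1298 and 779 to 944 FPKM, both lower in mutants without overlap. Control replicate 1 had the lowest Igf1 of the 7 libraries. It also had their lowest sums of macrophage markers (73.5 FPKM), mesenchymal markers (193 FPKM) and endothelial markers (13.04 FPKM). Its sum of erythroid markers was the highest (3650 FPKM, beside 539 to 1608 FPKM in the others). Mutant replicate 1, with the highest Igf1, had a macrophage sum of 225 FPKM, between those of the other mutants (146 and 507 FPKM), and the highest endocrine sum of the 7 libraries (18839 FPKM, beside 5209 to 11748 FPKM in the others). The part of cell composition in the values of the 6 genes was not tested.

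The genes whose levels were most like each member over the 14 libraries of the H19DMD table were ranked by the root mean square difference of centred log2(FPKM + 1) values, among 8687 named genes averaging at least 5 FPKM. The libraries of a fraction share their cell types, so a gene with a like fraction difference ranks high. For Igf1 these were Flrt2, a leucine-rich repeat membrane protein (0.245), Nrp1, a co-receptor for semaphorins and VEGF (0.278), and Ckap4 (0.333), against a spread of Igf1 about its own mean of 1.42. For Igf2r they included Cyth3 (0.288) and Hmcn1 (0.317), against 1.16. For Irs1 they were Epb4.1l2 (0.221), the phosphodiesterase gene Pde1a (0.234) and the protease inhibitor gene Serpine2 (0.243), against 1.48. As group means, Flrt2 had 57.3 FPKM in mesenchymal and 7.95 FPKM in non-mesenchymal controls, and Serpine2 had 77.5 and 7.68 FPKM.

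Igf1r, Insr and Irs2 varied less about their own means. The genes most like them vary little as well, which follows from how they were picked. For Igf1r they were Arhgef11 (0.136), Tsc2 (0.145) and Slc39a7 (0.155), against its own spread of 0.34. Tsc2, which had 12.2 FPKM in mesenchymal and 6.77 FPKM in non-mesenchymal controls, passed as higher between these fractions (0.77; limma adjusted p = 0.0482) but not in mutants (0.23; limma adjusted p = 0.471). For Insr they were Srrm2, a splicing factor gene (0.143), Tubgcp2 (0.151) and Supt6h (0.160), against 0.20. For Irs2 they included Vps52 (0.256) and Brd7 (0.264), against 0.41. For Insr the differences are nearly as large as its own spread, so these ranks carry little.

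The surrounding pathway was described with a list of 48 other genes, of which 43 were tested between fractions. In controls 14 were higher in mesenchymal cells (32.6%, beside 12.4% of all genes) and 3 lower (6.98%, beside 10.3%), with a median of 0.43 against 0.08 over all genes on the log2 scale. In H19DMD mutants 18 were higher (41.9%, beside 13.5%) and 7 lower (16.3%, beside 15.1%), with a median of 0.45 against -0.03. Of these, 16 passed in both (37.2% of 43), each in the same direction, 13 higher and 3 lower; of all 15715 genes tested in both, 2888 (18.4%) passed in both, 2886 of them in the same direction. The binding protein and protease genes held 7 of the 14 higher calls in controls and 7 of the 18 in mutants. They included Igfbp3 (4.73 in controls and 4.52 in mutants), Igfbp4 (4.52 and 3.79), Igfbp5 (3.75 and 3.28) and Igfbp6 (3.64 and 3.42), whose products bind IGFs outside the cell, and Pappa (3.15 and 3.08), a protease that cleaves IGF binding proteins. Igfbp6 (0.790 and 0.110 FPKM in non-mesenchymal controls and mutants), Pappa (0.287 and 0.388 FPKM) and, in mutants, Igfbp2 (0.458 FPKM) reached the filter through the mesenchymal libraries alone, so the filter had part in this count. Of the 2 genes of this group below the filter, Igfals had 0.158 FPKM in mesenchymal and 0.899 FPKM in non-mesenchymal controls, and was listed at 0 and had 0.961 FPKM in mutants; Igfbp1 was listed at 0 in both fractions of controls.

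Among the ligands, Igf2 was higher by 6.29 in controls and 6.16 in mutants, and the insulin genes Ins1 (-7.81 and -7.38) and Ins2 (-7.68 and -7.60), products of beta cells, were lower. The other groups had fewer calls, to be read beside the 22.6% of all genes that passed in controls and the 28.6% in mutants. Of 7 tested adaptor and inhibitor genes, 2 were higher and 1 lower in controls, and 3 were higher and 2 lower in mutants. Grb10, an imprinted inhibitor of both kinase receptors, was higher (1.02 and 1.06), and Grb14, a related inhibitor, was lower (-1.32 and -1.58). Of 10 PI3K and AKT genes, 2 were higher in controls, and 4 were higher and 1 lower in mutants. Akt2 (1.36 and 0.98), which encodes a kinase activated through PI3K, passed in both. Of 12 downstream genes, among them Mtor, Foxo1 and Gsk3b, 1 was higher in controls and 2 in mutants. Insrr, a receptor related to Insr, passed as lower in mutants (-1.42; limma adjusted p = 0.0283) but not in controls (-0.53; limma adjusted p = 0.192); the difference between the genotypes was tested as the interaction, where none of the 43 list genes tested passed.

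**Figure D5:**
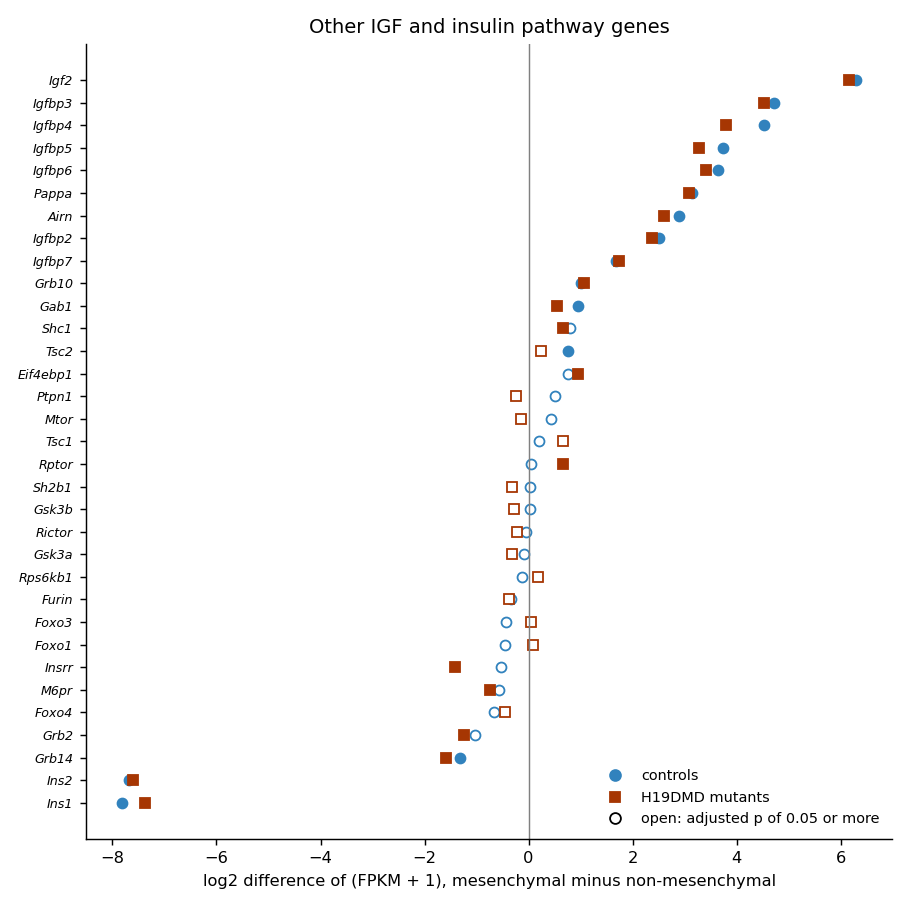
Mesenchymal minus non-mesenchymal differences on the log2(FPKM + 1) scale for 33 tested genes of the pathway list, leaving out the PI3K and AKT group, in controls (circles) and H19DMD mutants (squares), ordered by the value in controls; open symbols did not pass. Igf2, the binding protein genes, Pappa and Airn lie at the top with positive values, and Ins1 and Ins2 lie below -7.

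In the other 4 comparisons none of the list genes passed (limma; 3 of 43 at an unadjusted p under 0.05 for H19DMD in mesenchymal cells, 8 of 41 in non-mesenchymal cells, 1 of 41 for the Igf2 deletion and 2 of 43 for the interaction). These are 6.98, 19.5, 2.44 and 4.65% of the list, beside 4.76, 5.35, 5.28 and 6.35% of all genes. The 8 in non-mesenchymal cells were Ins1, Ins2, Rptor, Foxo1 and Rps6kb1, all lower in mutants, and Igf2, Insrr and Gab1, all higher. Of these, Ins1 and Ins2 are also among the endocrine markers. The list medians were -0.06, 0.07, -0.05 and -0.14, beside -0.07, 0.05, -0.03 and -0.11 over all genes.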

How the data were processed

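The authors deposited 1 table of FPKM values per model. TopHat2 2.0.8, Cufflinks 2.2.1 and GRCm38 are named per the submitters' processing notes; the annotation, strand use and scaling between libraries are not given in the sources used here. Amplified total RNA was sequenced as single reads, per the labels' protocols. Groups follow the labels. Of 31 samples, 21 had values; 8 columns of the Igf2 model's mesenchymal cells were empty, and those samples and 2 H19DMD controls were not analysed here. Of the identifiers, 36425 are in GENCODE M21.

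Differences were tested with limma 3.58.1 (R 4.3.3) on log2(FPKM + 1), over genes averaging at least 1 FPKM in the libraries compared, with a variance trend, two-sided, Benjamini-Hochberg adjustment over all genes tested and a threshold of 0.05; only the groups compared entered a fit. The fit was tested on simulated data. FPKM hold no counts, so no counting intervals are given, and this scale understates changes of low genes. Exact permutation tests used all relabellings of the libraries (SciPy 1.17.1) and were two-sided. Named were the 6 genes, Igf2, up to 6 list genes per comparison by size of difference with examples of each group, and the 3 genes most like each member; some genes that this rule names are not reported here. The list examples beyond those 6 (Airn, Pappa, Grb10, Grb14, Akt2, Insrr, Igfbp1, Igfbp2, Igfals, Tsc2 and genes named without values), Gm9747 and the other overlapping genes were chosen after their values were seen. Members and lists were chosen with earlier results of these data known. Alternatives were another pseudocount, no filter, a transcript length minimum, median-ratio scaling, all groups in 1 fit, a replicate block and leaving out each library.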

Additional observations from a re-analysis of the deposited data

How the results depend on the processing

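Of the 35 tested differences of the 6 genes, 6 passed (Igf1, Igf2r and Irs1 in both fraction comparisons), and these kept their direction and passed in all 78 of their alternative values: Igf1 2.19 to 2.72 in controls and 2.84 to 3.08 in mutants, Igf2r 1.71 to 2.24 and 2.04 to 2.52, Irs1 2.56 to 3.45 and 3.06 to 4.23, the highest Irs1 values coming with a pseudocount of 0.1. No difference that had missed the threshold passed it under any alternative run (lowest limma adjusted p = 0.053). Of 485 alternative values, 18 changed sign, all in differences that had not passed, 16 of them on leaving out a library. Igf1r in mesenchymal H19DMD mutants was 0.014 with median-ratio scaling, and Igf2r in non-mesenchymal H19DMD mutants was 8.03e-05 with the replicate block. Leaving out 1 library gave ranges that crossed 0 for Irs2 (-0.000674 to 0.39) between fractions in controls, Insr (-0.12 to 0.027) and Irs2 (-0.42 to 0.11) between fractions in mutants, Igf1r (-0.18 to 0.051), Igf2r (-0.071 to 0.41) and Irs2 (-0.091 to 0.30) in mesenchymal H19DMD mutants, Igf1 (-0.42 to 0.11) and Igf2r (-0.40 to 0.13) in non-mesenchymal H19DMD mutants, and Igf1r (-0.13 to 0.27) with the Igf2 deletion.

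Counts of genes between fractions stayed within 1.5 times of the reported ones. For H19DMD in mesenchymal cells the 11 genes became 1 with transcripts of at least 200 nt, 5 with all groups in the fit, 7 with the replicate block and 13 to 27 without 1 library. In non-mesenchymal cells the 11 became 0, 1, 5 and 14 to 34 under the same settings. For the Igf2 deletion the 11 became 0 with transcripts of at least 200 nt, 2 with the block and 14 to 37 without 1 library. The interaction's 2 became 6 with a pseudocount of 0.1, 6 without a filter, 0 with transcripts of at least 200 nt and 2 to 9 without 1 library. The causes were not tested. The labels share replicate numbers but do not tie them to animals, and same-numbered libraries had correlated deviations of at most 0.0674, with 4 of 6 libraries closest to their own number between fractions in controls and 5 of 8 in mutants. Between fractions all same-numbered correlations were positive, 0.0174 to 0.0674 in controls and 0.00738 to 0.0419 in mutants. Differently numbered ones ran from -0.0429 to 0.0231 and from -0.0514 to 0.0309. No same-numbered pair exceeded 0.1, and the numbers were not used as pairs. These small values do not exclude pairing, and whether the numbers mark shared animals is not known. The replicate block gave 2660 genes between fractions in controls and 4141 in mutants, and it changed no call among the 6 genes. Depth is unknown, and the non-mesenchymal levels of Irs1 lie near or below 1 FPKM in the H19DMD table.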
